A study of Mus musculus with 6 samples.

Results

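The genes described here are 10 markers of macrophage identity, taken by symbol from a table of 23504 genes. They are 5 markers of mature macrophages (Adgre1, Lyz2, Aif1, Cd86 and Gpnmb), the efferocytosis receptors Mertk and Axl, and the C1q chains C1qa, C1qb and C1qc. All 10 symbols were in the table. The rule names them by symbol and sets no limit on a value, but it was written with earlier results of these data known. The values came from RNA-seq of BMMs, macrophages grown from bone marrow with the growth factor M-CSF, which turn into bone-resorbing osteoclasts when RANKL is added. There were 3 libraries with DASA-58, a small molecule that activates the glycolytic enzyme PKM2, and 3 with DMSO, its solvent. The cells of both groups came from C57BL/6 mice, which the study's methods give as males of 6 to 8 weeks, and RNA was taken after 3 days. Both groups are described as induced with RANKL in the results of the study, whereas the methods name RANKL only for the DASA-58 cells, so on a literal reading of the methods RANKL and DASA-58 would differ together between the groups and cannot be told apart. The methods write DASA-48 where the labels write DASA-58, and the concentration for this experiment was not given in the sources used here. The sources do not say whether the 3 libraries of a group came from separate mice or cultures, so the p-values measure only the spread between these libraries, which may be technical.

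A macrophage is recognized by what it clears and by what it carries on its surface. Adgre1 encodes F4/80, the surface receptor most often used to stain mouse macrophages. Mertk and Axl are receptor tyrosine kinases of the TAM family that bind dying cells through bridging proteins, which starts their uptake (efferocytosis). Gas6 bridges both receptors, and Pros1 bridges Mertk. C1q, the recognition unit of the classical complement pathway, is built from the products of C1qa, C1qb and C1qc, and macrophages are a main source of it. Macrophages and osteoclasts share a precursor, and several macrophage genes are known to be repressed as RANKL drives the precursor toward the osteoclast.

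The 3 C1q genes lie side by side on chromosome 4 of the mouse and all run on the minus strand. In the GENCODE M21 annotation of GRCm38, C1qb spans chr4:136880129-136886187, C1qc chr4:136889804-136893065 and C1qa chr4:136895917-136898803. The promoters of the neighbors C1qb and C1qc are shown because both genes rose with DASA-58 and lie side by side. The sequences are those of RefSeq on GRCm38.p6, from 250 bases before to 50 bases after its gene start, in the direction of the gene. All starts and distances below are counted from the RefSeq start. It can differ from the GENCODE start, and for C1qc it lies inside the GENCODE span. Capitals mark matches to 3 short motifs, searched on both strands: GAGGAA for PU.1, TGCTGA for MAF and TCANGTG for an M-box.
C1qb, chr4:136886151-136886450, minus strand: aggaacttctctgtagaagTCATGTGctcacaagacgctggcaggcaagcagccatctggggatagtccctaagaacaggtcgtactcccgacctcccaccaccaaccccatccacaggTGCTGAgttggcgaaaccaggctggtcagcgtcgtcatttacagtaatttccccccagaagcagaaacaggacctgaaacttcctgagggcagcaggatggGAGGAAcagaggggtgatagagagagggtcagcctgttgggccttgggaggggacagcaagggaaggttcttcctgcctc
C1qc, chr4:136892865-136893164, minus strand: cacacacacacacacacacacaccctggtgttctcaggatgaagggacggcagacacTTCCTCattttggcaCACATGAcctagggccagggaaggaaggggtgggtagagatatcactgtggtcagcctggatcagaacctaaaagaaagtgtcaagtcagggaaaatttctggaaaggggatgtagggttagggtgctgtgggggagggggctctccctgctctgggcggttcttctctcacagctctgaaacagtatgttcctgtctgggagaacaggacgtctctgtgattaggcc
Both promoters held a GAGGAA match, which began 30 bases before the start in C1qb and 193 bases before it in C1qc, there on the opposite strand. Both also held an M-box match, TCATGTG at 231 bases before the start of C1qb and CACATGA at 178 bases before that of C1qc. A MAF match lay 131 bases before the start of C1qb. None of these 5 matches overlapped another. A RefSeq promoter was matched for 7 of the 10 genes, all but C1qa, Adgre1 and Cd86. Among these 7, 4 held GAGGAA (C1qb, C1qc, Axl and Aif1), against 28.3% of the 32851 promoters in the table. A TCANGTG match was in 4 of them (C1qb, C1qc, Lyz2 and Aif1), against 14.3% of all promoters. The free letter N makes this pattern looser than an M-box. The match read TCAAGTG in Lyz2 and CACTTGA in Aif1, unlike the letters in C1qb and C1qc. A MAF match was in 2 (C1qb and Lyz2), against 19.5%. In Lyz2 the TCANGTG match, 130 bases before the start, overlapped the MAF match at 125 bases. Gpnmb held an AP-1 match (TGANTCA, in 7.81% of all promoters) just after its start, Aif1 an IRF match (3.44%), and none of the 7 held a C/EBP match (TTGCNNAA, 10.8%). These matches are letters in a window and were not tested as binding sites.

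Levels are given as FPKM, in which fragments are divided by gene length and by the depth of the library. A comparison between genes therefore depends on the gene lengths used. Recovered fragment totals ranged from 18191560 to 18968555 per library, and a count of 0 would allow 3 fragments, or 0.158 to 0.165 FPKM on a gene of 1 kb, which covers counting error only. The defining macrophage genes were present, with Csf1r, the receptor for M-CSF, at 322 ± 2.92 FPKM (SD, n = 3) in DMSO and 336 ± 10.3 FPKM (SD, n = 3) in DASA-58. Genes of the osteoclast were also present in both groups, for instance Ctsk at 210 ± 6.26 FPKM (SD, n = 3) in DMSO. In bulk RNA, fewer cells of a type and less RNA per cell cannot be told apart.

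All 10 genes had a mean of at least 1 FPKM and were tested. Lyz2 was the most abundant gene of the whole table (rank 1). Gpnmb, C1qb, C1qa and C1qc stood at ranks 21, 22, 29 and 79, Adgre1 at rank 124, Aif1 at rank 626, Mertk at rank 3638, Axl at rank 7338 and Cd86 at rank 8403. Gpnmb lay above C1qb in every DMSO library and below it in every DASA-58 library. The other neighbors in this order kept their order, without overlap, within each group of 3 libraries. The lowest single value was 2.73 FPKM for Cd86 and the highest 17767 FPKM for Lyz2. Together the 10 genes took between 3.07% and 3.19% of the fragments in the DMSO libraries and between 3.34% and 3.65% in the DASA-58 libraries.

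**Figure D1:**
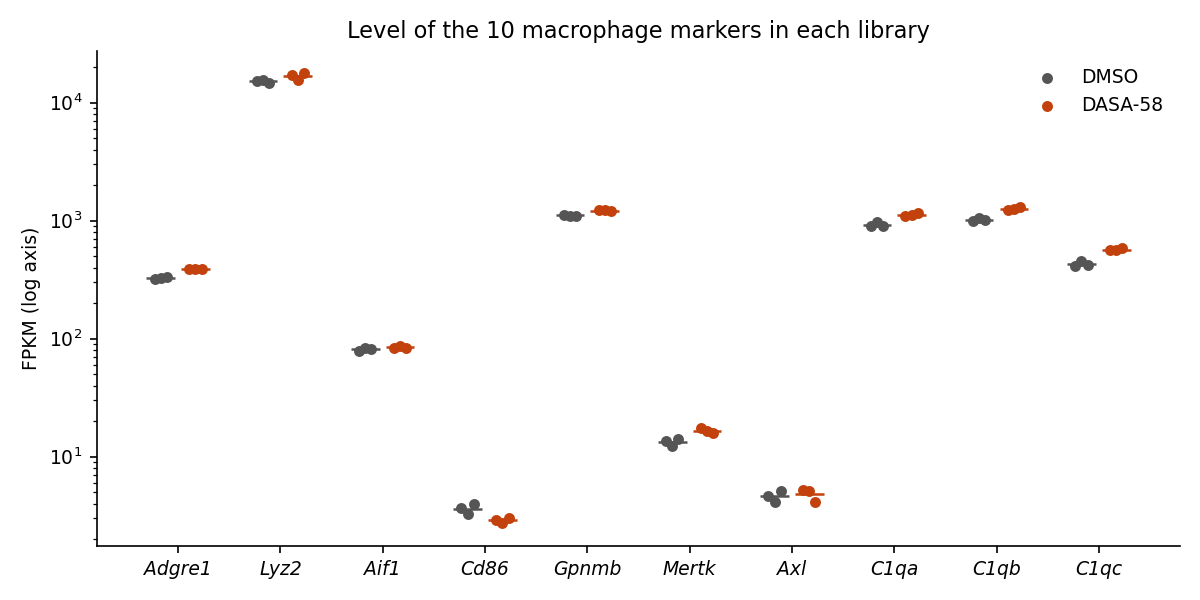
FPKM of the 10 genes (log axis) in each library, gray for DMSO and orange for DASA-58, with a line at the mean of each group of 3. Lyz2 lies above the other 9 genes in every library and Cd86 stays below 4 FPKM, while the libraries of Gpnmb, C1qa and C1qb lie close together.

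Of the 10 genes, 6 rose with DASA-58 past an adjusted p of 0.05 (limma on log2(FPKM + 1), Benjamini-Hochberg adjustment over 10965 genes), namely Adgre1, Mertk, C1qa, C1qb, C1qc and Gpnmb. None of the 10 was lower at that threshold in limma. Cd86 alone was below its DMSO mean, and it was the 1 gene that was lower at an unadjusted p under 0.05 and with voom weights on recovered fragments. Of all genes tested, 4.24% were higher and 7.28% were lower. The rises were small, from 9.86% for Gpnmb to 31.4% for C1qc. The median log2 fold change of the 10 genes was 0.20, and that of all tested genes was -0.03. In 7 of the 10 genes every DASA-58 library lay above every DMSO library, and in Cd86 every one lay below. Among all genes tested, 11.8% were separated upward and 21.6% downward in this way. Exact permutation of 3 against 3 libraries gives no p below 0.10, so single genes rest on the limma fit.

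**Figure D2:**
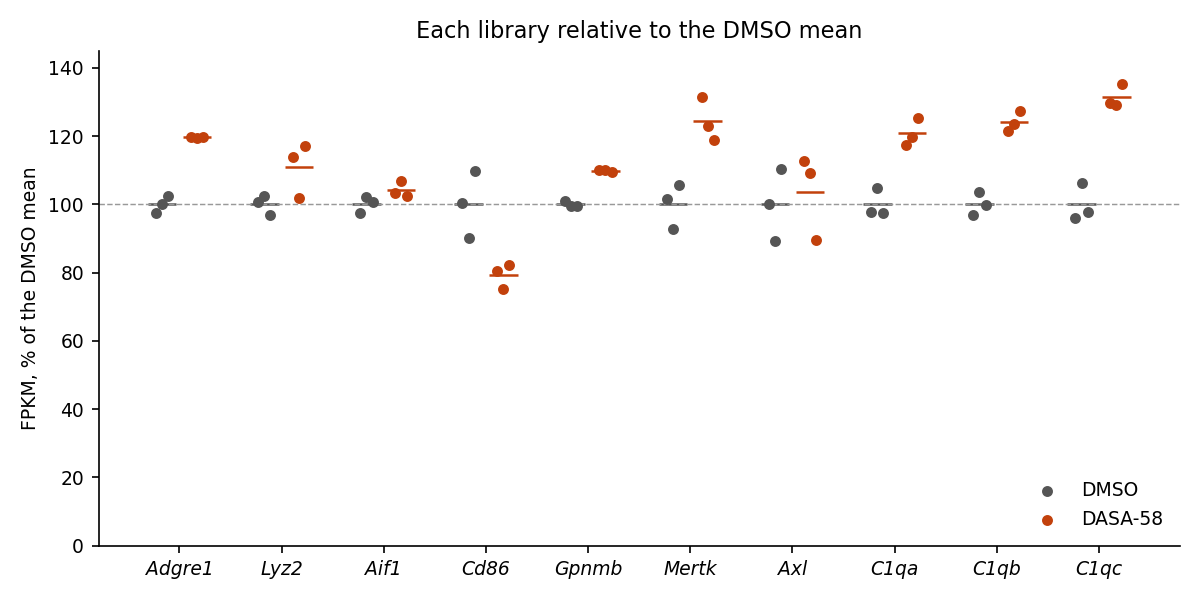
FPKM of each library as a percentage of the DMSO mean of the same gene, gray for DMSO and orange for DASA-58, with a line at each group mean and a dashed line at the DMSO mean. The 3 DASA-58 libraries of C1qc lie highest as a group, those of Cd86 lie below all DMSO libraries, and those of Axl and Lyz2 overlap with DMSO.

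All 3 C1q chains rose with DASA-58. C1qa encodes the A chain of C1q and had 906, 969 and 901 FPKM in DMSO replicates 1, 2 and 3, and 1087, 1108 and 1160 FPKM in the DASA-58 replicates. All DASA-58 values were above the highest DMSO value. The mean went from 925 ± 38.0 to 1118 ± 38.0 FPKM (SD, n = 3), with log2 fold change 0.27, SE 0.038 and adjusted p = 0.00414 (limma). C1qb encodes the B chain, with 988, 1057 and 1018 FPKM in DMSO against 1240, 1261 and 1299 FPKM in DASA-58. Here the gap between the groups was wider than the range within either of them. The means were 1021 ± 34.7 and 1267 ± 30.1 FPKM (SD, n = 3), with log2 fold change 0.31, SE 0.032 and adjusted p = 0.00116 (limma). For C1qc, the gene of the C chain, the DMSO libraries held 415, 460 and 423 FPKM and the DASA-58 libraries 562, 559 and 585 FPKM. No library of one group reached the range of the other. The mean of C1qc rose from 433 ± 23.7 to 569 ± 14.1 FPKM (SD, n = 3), with log2 fold change 0.39, SE 0.041 and adjusted p = 0.00119 (limma). DMSO replicate 2 was the highest DMSO library for all 3 chains. Between 14722 and 26817 fragments supported each value, so counting error was under 1% and the spread between libraries, 2.38% to 5.47% as a coefficient of variation, was larger than counting alone gives.

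The ratio between chains within a library does not depend on the scaling between libraries. C1qa over C1qc was 2.11 to 2.18 in DMSO and 1.93 to 1.98 in DASA-58, so the ratio was lower in every DASA-58 library. C1qb over C1qc was 2.30 to 2.41 in DMSO and 2.21 to 2.25 in DASA-58, again without overlap. C1qa over C1qb, by contrast, was 0.885 to 0.917 in DMSO and 0.876 to 0.893 in DASA-58, and the groups overlapped. For the first 2 ratios the exact permutation p (two-sided) was 0.10, the smallest the design allows, and 0.16 after adjustment over the 8 ratios compared, and for C1qa over C1qb it was 0.20 (0.27 adjusted).

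The TAM receptors gave different values. Mertk, which tethers and engulfs apoptotic cells, had 13.6, 12.4 and 14.2 FPKM in DMSO and 17.6, 16.5 and 15.9 FPKM in DASA-58. Its lowest DASA-58 library stood above its highest DMSO library. The mean rose from 13.4 ± 0.895 to 16.7 ± 0.849 FPKM (SD, n = 3), with log2 fold change 0.30, SE 0.056 and adjusted p = 0.0152 (limma), and without DASA-58 replicate 1 the log2 fold change was 0.26 with an adjusted p of 0.053. Axl, the TAM receptor that is typically raised in inflamed macrophages, had 4.67, 4.16 and 5.14 FPKM in DMSO and 5.24, 5.08 and 4.17 FPKM in DASA-58. The groups overlapped over nearly their whole range. The log2 fold change of Axl was 0.04 with a 95% interval from -0.17 to 0.25 (adjusted p = 0.80, limma). Leaving out DMSO replicate 2 or DASA-58 replicate 1 turned its sign, to -0.02 and -0.01. The spread of Axl between libraries, 10.5% in DMSO and 12.0% in DASA-58, was above the 4.81% and 4.70% that counting of 395 to 497 fragments gives. Mertk over Axl within a library was 2.76 to 2.98 in DMSO and 3.24 to 3.82 in DASA-58, without overlap (exact permutation p = 0.10, adjusted 0.16). Tyro3, the remaining TAM receptor, had only 5 to 12 fragments per library and was not tested.

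Of the ligands that bridge these receptors to dying cells, Gas6 rose from 74.7 ± 3.15 to 102 ± 4.12 FPKM (SD, n = 3), with log2 fold change 0.45 (adjusted p = 0.000769, limma). Its libraries held 78.3, 72.9 and 72.8 FPKM in DMSO and 105, 97.6 and 104 FPKM in DASA-58, with no overlap. Pros1, the ligand shared by Mertk and Tyro3, was at 8.70 and 9.65 FPKM on average and did not pass (adjusted p = 0.11). Mfge8, which bridges dying cells to integrins, was at 9.79 and 10.3 FPKM (adjusted p = 0.38). The proteases that shed Mertk and Axl from the surface were nearly level, with Adam10 at 50.4 and 52.8 FPKM (adjusted p = 0.24) and Adam17 at 48.4 and 47.9 FPKM (adjusted p = 0.80).

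Among the markers of mature macrophages, Adgre1 and Gpnmb passed the test. Adgre1, the gene of F4/80, had 318, 327 and 334 FPKM in DMSO and 391, 389 and 391 FPKM in DASA-58. The DASA-58 libraries lay closer to each other than the DMSO libraries did. The mean rose from 326 ± 7.70 to 390 ± 0.774 FPKM (SD, n = 3), with log2 fold change 0.26, SE 0.025 and adjusted p = 0.000981 (limma). Gpnmb, a transmembrane glycoprotein of late endosomes and lysosomes that is expressed in both macrophages and osteoclasts, had 1119, 1104 and 1103 FPKM in DMSO and 1221, 1220 and 1212 FPKM in DASA-58. The groups were far apart relative to their spread, although the change was the smallest of the 6. The mean of Gpnmb went from 1108 ± 8.93 to 1218 ± 5.13 FPKM (SD, n = 3), with log2 fold change 0.14, SE 0.021 and adjusted p = 0.00706 (limma). Under quantile normalization it was 0.02 (adjusted p = 0.73). Gpnmb over Adgre1 within a library was 3.30 to 3.52 in DMSO and 3.10 to 3.13 in DASA-58, without overlap (exact permutation p = 0.10, adjusted 0.16).

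Lyz2, which encodes the secreted lysozyme of macrophages and granulocytes, had 15254, 15513 and 14701 FPKM in DMSO and 17262, 15447 and 17767 FPKM in DASA-58. DASA-58 replicate 2 lay within the DMSO range and the other DASA-58 libraries above it. The means were 15156 ± 415 and 16826 ± 1220 FPKM (SD, n = 3), with log2 fold change 0.15, SE 0.052 and adjusted p = 0.11 (limma). Without DASA-58 replicate 2 the log2 fold change was 0.21 with an adjusted p of 0.024. Lyz2 alone took 1.93% to 2.34% of all fragments. Its neighbor Lyz1 is nearly identical in sequence and reads could be divided between them, but Lyz1 was listed at only 7.32 and 7.99 FPKM on average (adjusted p = 0.43).

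Aif1, the gene of the cytoskeletal protein IBA1, had 79.0, 82.8 and 81.7 FPKM in DMSO and 83.9, 86.6 and 83.1 FPKM in DASA-58. The groups did not overlap, but the lowest DASA-58 and the highest DMSO library were almost level. The log2 fold change was 0.06 with a 95% interval from -0.01 to 0.13 (adjusted p = 0.25, limma). Cd86, a costimulatory ligand for CD28 on T cells that is typical of activated macrophages, had 3.65, 3.27 and 3.99 FPKM in DMSO and 2.93, 2.73 and 2.995 FPKM in DASA-58. The highest of the DASA-58 values stayed under the lowest DMSO value. The means of Cd86 were 3.64 ± 0.358 and 2.89 ± 0.137 FPKM (SD, n = 3), with log2 fold change -0.25 (95% interval -0.41 to -0.09, adjusted p = 0.058, limma). Only 182 to 266 fragments supported each value. The adjusted p was 0.038 without DMSO replicate 2 and 0.027 with voom weights on recovered fragments, where the log2 fold change was -0.33. Cd86 over Adgre1 within a library was 0.0100 to 0.0120 in DMSO and 0.00702 to 0.00766 in DASA-58, the widest of the 8 ratio differences (-0.59 on the log2 scale, exact permutation p = 0.10, adjusted 0.16).

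**Figure D3:**
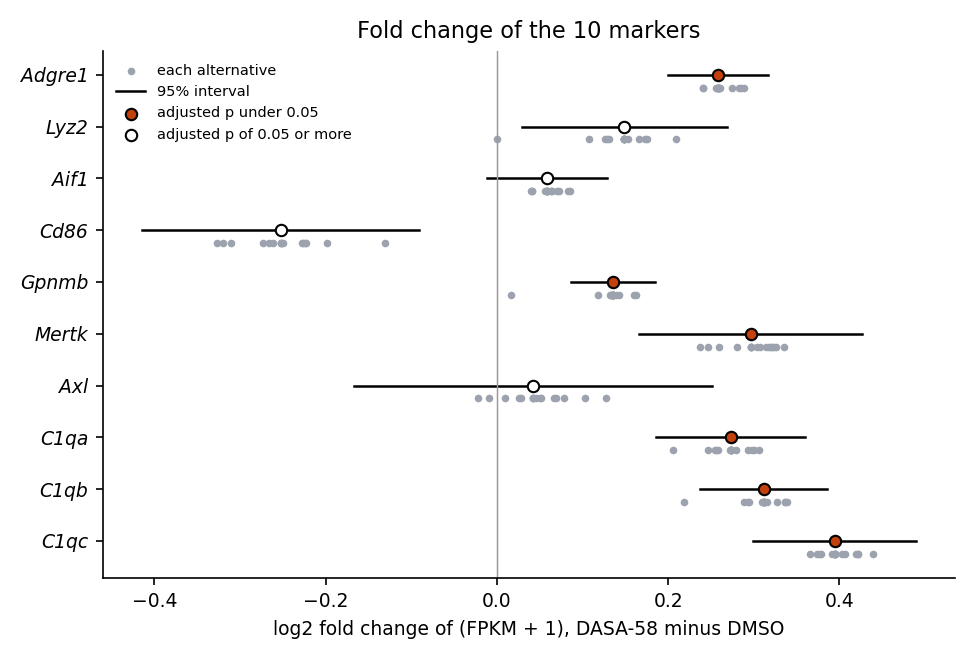
log2 fold change of (FPKM + 1), DASA-58 minus DMSO, for the 10 genes, with 95% intervals from limma, filled where the adjusted p was under 0.05, and gray points for the values under each alternative. The C1q chains, Mertk, Adgre1 and Gpnmb are filled, the interval of Axl spans 0, and the point of Gpnmb near 0 is the value under quantile normalization.

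**Figure D4:**
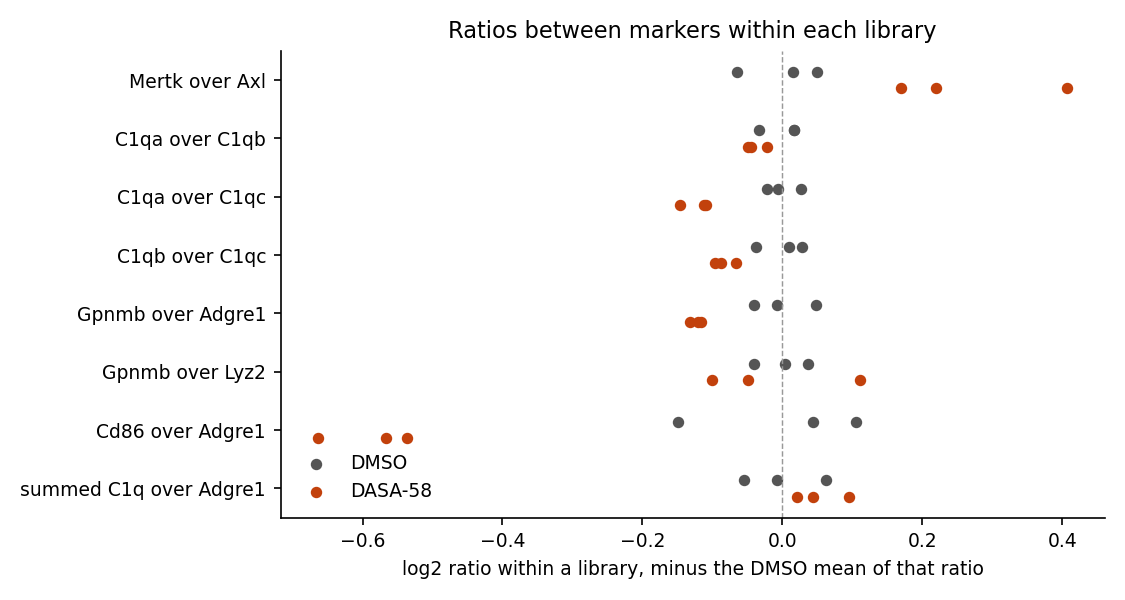
log2 ratio between 2 genes within a library, minus the DMSO mean of that ratio, for the 8 ratios, gray for DMSO and orange for DASA-58. The groups do not overlap in 5 of the 8 ratios, and those of Gpnmb over Lyz2, C1qa over C1qb and summed C1q over Adgre1 overlap. Several ratios share a gene, so they are not independent of each other.

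The summed C1q chains over Adgre1 gave a ratio of 7.02 to 7.61 in DMSO and 7.40 to 7.79 in DASA-58, with overlap and a log2 difference of 0.05 (exact permutation p = 0.30, adjusted 0.34), which ranged from 0.03 to 0.08 with a library left out. Gpnmb over Lyz2 also overlapped, at 0.0712 to 0.0750 in DMSO and 0.0682 to 0.0790 in DASA-58 (exact permutation p = 0.90).

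Of 7 close relatives of the 10 genes, 4 were tested, 0 rose and 2 fell in limma, and the counts were also 0 and 2 at an unadjusted p under 0.05 and with voom weights. Adgre4, an adhesion receptor of the same family as Adgre1, fell from 2.86 ± 0.141 to 2.13 ± 0.123 FPKM (SD, n = 3), with log2 fold change -0.30 (adjusted p = 0.021, limma). Adgre5, which encodes CD97, fell from 17.5 ± 0.836 to 15.2 ± 0.434 FPKM (SD, n = 3), with log2 fold change -0.19 (adjusted p = 0.029, limma). Cd80, the other CD28 ligand beside Cd86, was at 11.1 and 10.9 FPKM with a log2 fold change of -0.02 (adjusted p = 0.83). Tyro3, Aif1l and Pmel, a relative of Gpnmb, were under the filter.

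The list of other macrophage markers had 26 tested genes, of which 12 rose, 2 fell and 12 did neither, with a median log2 fold change of 0.15. The scavenger receptor Marco rose most, from 109 ± 4.26 to 225 ± 6.87 FPKM (SD, n = 3), with log2 fold change 1.04 (adjusted p = 8.3e-06, limma). Ms4a7, a membrane protein of mature macrophages, rose by 0.59 on the log2 scale, the phagosomal metal transporter Slc11a1 by 0.44, the lipid carrier Apoe by 0.47 and the lipid receptor Trem2 by 0.32. The genes that fell were Cd14, the lipopolysaccharide co-receptor, with -0.15, and Cx3cr1, the fractalkine receptor, with -0.40; both were named after their values were seen.

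In the complement list, 16 genes other than the C1q chains were tested, 5 rose and 0 fell at an adjusted p under 0.05 in limma, and the median was 0.10. At an unadjusted p under 0.05, 7 were higher and 3 lower, and with voom weights 7 rose and 2 fell. C1ra, the protease that C1q activates, rose by 0.37 on the log2 scale. Cd93, once described as a C1q receptor, rose by 0.25, C3ar1, the C3a receptor, by 0.20 and Itgb2, the common chain of complement receptors 3 and 4, by 0.14. C3 itself, the central component, was at 79.9 and 72.1 FPKM with a log2 fold change of -0.15 (adjusted p = 0.073, limma), and it was named after its values were seen.

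The efferocytosis list had 25 tested genes beside Mertk and Axl, of which 4 rose, 3 fell and 18 did neither, with a median of 0.05. With voom weights 7 rose and 4 fell. Those with the smallest adjusted p were Cd36, a receptor for oxidized lipid and dying cells, which rose from 347 ± 13.5 to 499 ± 11.3 FPKM (SD, n = 3), with log2 fold change 0.53, and the integrin chain Itgb3, with -0.86. Gas6 came next, then Itgav, the partner of Itgb3, with -0.43 and the phosphatidylserine receptor Stab1 with 0.29. Itgb3 and Itgav form the vitronectin receptor, which osteoclasts also use to attach to bone, and Itgb3 is in the osteoclast list as well.

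Of 19 transcription factors of macrophages, all tested, 3 rose, 3 fell and 13 did neither, with a median of 0.04. With voom weights on recovered fragments 6 rose and 3 fell. Cebpa, a factor of myeloid commitment, rose by 0.42 on the log2 scale, the nuclear receptor Rxra by 0.30 and Maf by 0.21. Egr2, with -0.62, Klf4, with -0.27, and Spi1, the gene of PU.1, with -0.14, fell. Spi1 went from 256 ± 5.01 to 232 ± 2.96 FPKM (SD, n = 3), and Maf from 33.2 ± 1.08 to 38.5 ± 0.456 FPKM (SD, n = 3). Irf8 and Bcl6, which restrain osteoclast formation, had log2 fold changes of 0.11 (adjusted p = 0.17) and -0.07 (adjusted p = 0.57), and Mitf, an osteoclast factor that drives Gpnmb in other cells, -0.07 (adjusted p = 0.35).

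In the list of T cell costimulation, which holds the relatives of Cd86 by function, 13 genes were tested, 2 rose and 2 fell, with a median of 0.04. Cd48, a ligand of the receptor CD244, and Icosl rose by 0.18 and 0.29 on the log2 scale, whereas the inhibitory ligand Cd274 (PD-L1) and the adhesion molecule Icam1 fell, with -0.29 and -0.13. When a library was left out, the higher genes of this list were 0 to 1 and the lower genes 1 to 2, with 2 lower genes only without DMSO replicate 2.

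The osteoclast list had 21 tested genes, of which 16 fell, 0 rose and 5 did neither in limma, with a median log2 fold change of -0.55. No gene of it was higher at an unadjusted p under 0.05 or with voom weights either (0 in both). Ctsk, the collagen-degrading protease, fell from 210 ± 6.26 to 110 ± 3.28 FPKM (SD, n = 3), with log2 fold change -0.93, and Acp5, the gene of TRAP, from 105 ± 3.83 to 55.6 ± 0.320 FPKM (SD, n = 3), with -0.90. The proton pump subunit Atp6v0d2 (-0.87), the protease Mmp9 (-0.74) and the AP-1 partner Jdp2 (-0.92) also fell. The study picked several genes of this list on the same libraries, so the count is not independent evidence of its direction.

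**Figure D5:**
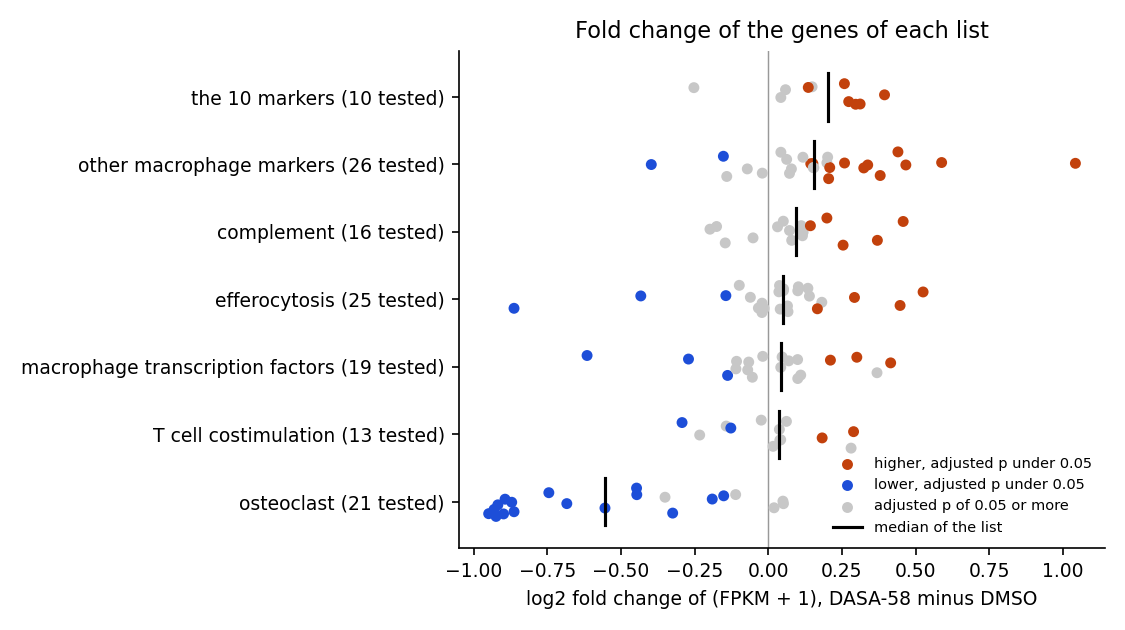
log2 fold change of (FPKM + 1), DASA-58 minus DMSO, for the tested genes of each list, one point per gene, orange where higher and blue where lower at an adjusted p under 0.05, gray otherwise, with a black line at the median of the list. The median of the 10 markers is 0.20 and that of the osteoclast list -0.55, and the 4 lists of efferocytosis, complement, transcription factor and costimulation genes have medians between 0.04 and 0.10.

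Markers of other cells that such a culture could hold were read beside these results. Of 11 neutrophil genes 9 were tested, and 4 fell (S100a8, S100a9, Ngp and Camp) and 1 rose (Mmp8), with the summed level at 181 to 185 FPKM in DMSO and 147 to 153 FPKM in DASA-58. The defining neutrophil marker Ly6g had at most 1 fragment in any library. Of 6 monocyte genes 5 were tested and Chil3 alone fell, and the sum was 21.6 to 23.0 FPKM in DMSO and 17.2 to 18.6 FPKM in DASA-58. Stromal genes summed to 36.8 to 38.8 FPKM in DMSO and 37.2 to 38.2 FPKM in DASA-58, with 0 of 4 tested genes past the threshold in limma, and 1 lower both at an unadjusted p under 0.05 and with voom weights. Sums for dendritic, T and NK, B, erythroid and mast cell genes stayed under 8 FPKM in every library. Lyz2 is also a gene of neutrophils and monocytes. The part of these cells in the values above was not tested.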

How the data were processed

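RNA of 6 BMM libraries was sequenced, and the authors deposited 1 table of FPKM, fragments per gene normalized to gene length and library depth. The submitters' processing notes name HISAT2 2.1.0, HTSeq 0.6.0 and the genome build mm8, without role or order. The annotation, the gene lengths and the use of strand are not given in the sources used here. All value columns were mapped to a library by title, so 0 were left out.

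Fragments were recovered from the deposited FPKM with exon lengths of GENCODE M21 (GRCm38). In all libraries 21436 genes (91.2%) came out whole within 0.05 fragments, and 1750 more did with a fitted length, Adgre1 among them. Recovered depth was 18191560 to 18968555 fragments per library. Coordinates are those of GRCm38, since the table holds none. A symbol was found for 23455 identifiers, and 49 had none. No exon base of the 10 genes is shared with another annotated gene.

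DASA-58 and DMSO libraries were tested against each other on log2(FPKM + 1) with limma 3.58.1 (R 4.3.3, eBayes with a trend) in the 10965 genes whose mean reached 1 FPKM, with Benjamini-Hochberg adjustment. The pseudocount of 1 shrinks the fold changes of low genes. Ratios were compared with exact two-sided permutation tests in SciPy 1.17.1. The fit was also run on simulated data, with shifts larger than any of the 10 genes showed. That run does not speak to changes as small as most of these 10 genes showed. The lists, the 10 genes and the rule for named genes were chosen with earlier results of these data known. The rule takes the 10 genes, their relatives, 10 ligands, proteases and transcription factors, and up to 5 genes per list with the smallest adjusted p under 0.05. Values of 2 genes under this rule are not reported here. Cd14, Cx3cr1, C3, Csf1r, Calcr, Spi1 and the neutrophil and monocyte genes were named outside it. Alternatives were other pseudocounts, filters and scalings, no trend, the replicate number as a block, voom weights on recovered fragments, and each library left out.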

Additional observations from a re-analysis of the deposited data

How the results depend on the processing

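Of 168 values of the 10 genes under an alternative, 157 stayed on their side of the threshold without reversing. Another 5 lost the call, 4 gained one and 2 reversed. Lyz2 under quantile normalization, at 0, is counted among the 157. Adgre1, C1qa, C1qb and C1qc were called under all 17 alternatives. Mertk lost its call with no filter on low values (0.30, adjusted p = 0.063) and without DASA-58 replicate 1 (0.26, adjusted p = 0.053). Its log2 fold change ranged from 0.25 to 0.34 with a library left out. Gpnmb lost it with no filter (0.14, adjusted p = 0.11), quantile normalization (0.016, adjusted p = 0.73) and no trend in the variance (0.14, adjusted p = 0.052). With voom weights Lyz2 (0.15, adjusted p = 0.000301) and Cd86 (-0.33, adjusted p = 0.027) passed, so 1 of the 10 genes was lower. Leaving out 1 library gave 5 to 7 higher and 0 to 1 lower genes, with Axl at -0.02 to 0.13 (-0.022 without DMSO replicate 2, -0.0094 without DASA-58 replicate 1), Lyz2 at 0.11 to 0.21 and Cd86 at -0.31 to -0.20. The log2 ratio of Gpnmb over Lyz2, -0.013, ranged from -0.075 to 0.031 and was positive without DMSO replicate 3 (0.0053), DASA-58 replicate 1 (0.0050) or DASA-58 replicate 3 (0.031). The fixed lists held 26 higher genes, 40 with voom weights and 19 to 28 with a library left out. They held 25 lower genes, 28 with voom weights and 22 to 25 with a library left out. The cause of these differences between settings was not tested. A mean of at least 5 FPKM left out Axl and Cd86, and Lyz2, first in every library, is 0 under quantile normalization by construction.

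Over all genes, 465 were higher and 798 lower. The counts were 257 and 372 with no filter, 734 and 1318 with voom weights, 341 and 515 with no trend, and 272 to 375 and 387 to 603 with a library left out. Scaling moved the split, to 600 and 588 with quantile normalization, 597 and 504 with centring on the median, 593 and 522 with a trimmed mean of log ratios, and 386 and 958 with equal totals. With the replicate block they were 378 and 579, and 6 of the 10 genes stayed higher and 0 lower. Same-numbered libraries did not deviate together (correlations -0.0155, 0.0157 and -0.0162). That cannot settle whether the numbers mark pairs, since paired cultures need not share a visible deviation. Depth limits Cd86 and Axl most, with at most 497 fragments per library.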
